A study of Homo sapiens with 13 samples.

Results

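The comparison described here is that of an IRF4 hairpin with a luciferase hairpin in the myeloma cell lines H929 and SKMM1 at day 4, and it rests on 3 of the 13 arrays of the series. The arrays were chosen by their labels: H929 day 4 repeat 1, H929 day 4 repeat 2 and SKMM1 day 4, all with the hairpin numbered 2046. On each array the culture with the IRF4 hairpin (shi_2046) was labelled with Cy5 and the culture of the same line with the luciferase hairpin (shluc) with Cy3. The labels give doxycycline at 20 ng/ml for 4 days as the treatment of both cultures, so the control cells had the drug as well. The other 10 arrays hold KMS12, another myeloma line, uninduced (3 arrays, no doxycycline) or induced with doxycycline at 20 ng/ml for 2 to 7 days (7 arrays). They form series named by the hairpin labels 1332, 1332b and 2046, with 1 uninduced array each. They served here to estimate the spread, and the uninduced arrays as a background. The KMS12 groups used for the spread pool these labels, and the induced ones nearby days, so differences between them are part of it. H929 and SKMM1 are established lines, no uninduced array of either was analysed here, and nothing in the labels says whether the H929 repeats came from separate cultures. The p-values therefore cover only the spread among arrays, part of which may be technical.

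IRF4 (interferon regulatory factor 4) is a transcription factor of lymphocytes that plasma cells need to form and to live, and myeloma, the cancer of plasma cells, depends on it. With partner proteins it binds composite sites, and where its level is high it also binds interferon-stimulated response elements, the sites through which the other IRF proteins act. PRDM1 and MYC are among its known targets in myeloma cells. Plasma cells secrete antibody and hold an enlarged endoplasmic reticulum, kept by the transcription factors XBP1 and ATF6 and by the chaperones they induce. Those factors bind the ER stress response element, CCAAT and CCACG with 9 bases between them.

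These elements were looked for in the promoters of the named genes, and 5 promoters are printed, with the sites in capitals. They belong to members of the endoplasmic reticulum and interferon lists, described below. Each was called in the mean of the lines and holds the element of its list. Each is the RefSeq window of 300 bases, 250 before the gene start and 50 after it, in build GRCh38.p14, written 5′ to 3′ on the gene's strand. The ER stress response element (searched as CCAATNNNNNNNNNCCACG on both strands) is in the promoters of the chaperone HSPA5 at chr9:125241294-125241593 (minus strand), the chaperone HSP90B1 at chr12:103930160-103930459 (plus strand) and XBP1 at chr22:28800520-28800819 (minus strand).
HSPA5: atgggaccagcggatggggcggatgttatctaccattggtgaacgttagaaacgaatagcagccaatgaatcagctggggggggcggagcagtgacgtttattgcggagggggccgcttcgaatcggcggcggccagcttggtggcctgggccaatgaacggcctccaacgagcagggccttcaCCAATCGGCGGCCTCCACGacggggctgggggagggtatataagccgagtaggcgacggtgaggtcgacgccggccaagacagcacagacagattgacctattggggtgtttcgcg
HSP90B1: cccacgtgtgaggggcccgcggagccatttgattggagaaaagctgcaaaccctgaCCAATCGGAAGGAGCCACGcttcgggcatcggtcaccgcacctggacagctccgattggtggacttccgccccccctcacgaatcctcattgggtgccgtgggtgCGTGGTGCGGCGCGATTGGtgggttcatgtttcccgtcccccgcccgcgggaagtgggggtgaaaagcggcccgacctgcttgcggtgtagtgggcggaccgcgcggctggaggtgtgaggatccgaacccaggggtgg
XBP1: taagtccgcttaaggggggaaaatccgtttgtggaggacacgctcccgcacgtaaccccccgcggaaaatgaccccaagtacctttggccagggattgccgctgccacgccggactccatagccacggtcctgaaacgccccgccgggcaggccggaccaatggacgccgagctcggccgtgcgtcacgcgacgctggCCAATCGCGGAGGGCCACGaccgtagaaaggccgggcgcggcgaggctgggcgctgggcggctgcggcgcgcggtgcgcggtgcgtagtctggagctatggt
The interferon-stimulated response element (searched as GAAANNGAAA on both strands) is in the promoters of the ubiquitin-like protein ISG15 at chr1:1013247-1013546 (plus strand) and the membrane protein IFITM1 at chr11:313790-314089 (plus strand).
ISG15: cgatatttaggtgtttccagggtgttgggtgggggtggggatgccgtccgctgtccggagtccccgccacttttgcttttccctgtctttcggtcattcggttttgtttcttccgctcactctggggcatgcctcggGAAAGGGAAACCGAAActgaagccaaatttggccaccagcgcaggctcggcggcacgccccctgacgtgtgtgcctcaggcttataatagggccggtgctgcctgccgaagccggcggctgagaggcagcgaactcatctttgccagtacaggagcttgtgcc
IFITM1: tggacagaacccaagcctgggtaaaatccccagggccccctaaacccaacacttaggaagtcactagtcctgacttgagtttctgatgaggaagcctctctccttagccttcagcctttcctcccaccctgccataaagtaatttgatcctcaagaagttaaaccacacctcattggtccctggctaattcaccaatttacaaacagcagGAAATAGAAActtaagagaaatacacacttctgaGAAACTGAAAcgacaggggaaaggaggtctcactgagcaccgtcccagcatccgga
HSP90B1, ISG15 and IFITM1 have 2 matches each, and those of ISG15 overlap. Of all 35116 windows in the RefSeq table, 0.0769% hold the first motif and 3.57% the second. The second is also in promoters of other called genes, both raised (TNFSF10 among them) and lowered (TCF4 and B2M among them). A match is a stretch of letters and was not tested as a binding site.

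The deposited values are log ratios, IRF4 hairpin over luciferase hairpin, taken here as log2, so a value below 0 means less mRNA with the IRF4 hairpin. H929 repeat 1 had a value for 8408 features (spots of the array), H929 repeat 2 for 9263 and SKMM1 for 8719. After centring each array on its median, 3509 genes were tested, of which 2225 had a gene name and 1284 were features without one. The genes spread less on H929 repeat 1 (SD 0.47) than on H929 repeat 2 (SD 0.59) and SKMM1 (SD 0.65). On these arrays, in the same order, 83, 299 and 317 genes were past 2-fold lower and 19, 26 and 119 past 2-fold higher. In SKMM1 this is 9.03% of genes lower and 3.39% higher, and the H929 mean had 157 genes past 2-fold lower (4.47%) and 15 higher (0.427%). As deposited, across features, the uninduced KMS12 array of series 2046 correlated at r = -0.22 and -0.26 with the H929 arrays and -0.33 with SKMM1. In the same order, the uninduced array of series 1332 gave -0.06, -0.18 and -0.19. That of series 1332b gave 0.15, 0.10 and 0.13. The correlation with the day 2 KMS12 array of series 1332b was 0.46 and 0.59 for H929 and 0.55 for SKMM1, and with the day 4 KMS12 array of series 2046 it was 0.05 and 0.01 for H929 and 0.03 for SKMM1. The labels state the dyes of both and the conditions differ, so the direction was kept. A ratio gives no level of expression, so whether the lines express plasma cell markers could not be checked. No dye swap was made, so a dye effect of a gene stays in its ratio.

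IRF4 itself was lowered to about the same extent in both lines. Its log2 ratio was -1.79 and -1.99 on the H929 arrays and -2.06 in SKMM1. This corresponds to 28.9% and 25.2% of the control level in H929, and to 24.0% in SKMM1. The mean of the lines was -1.97 ± 0.16 (SE), or 3.93-fold lower, and had the lowest adjusted p of all genes (limma, 0.000218). The 2 features behind this value gave -1.92, -2.18 and -2.07, and -1.67, -1.80 and -2.04, in the same order of arrays. IRF4 averaged 0.14 on the 3 uninduced KMS12 arrays. In RNA of a whole culture, fewer cells with a transcript and less of it per cell cannot be told apart. H929 minus SKMM1 was 0.17 ± 0.32 (limma adjusted p = 0.999).

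The lines shared much of their response. Across the 3509 genes, the H929 mean and SKMM1 had r = 0.73 (Spearman rho 0.72), and 77.5% of genes had the same sign in both. Array by array, SKMM1 had r = 0.64 with H929 repeat 1 and r = 0.70 with H929 repeat 2, and the H929 repeats had r = 0.69 (rho 0.72) with each other and the same sign in 78.8% of genes. These are descriptions across genes, which are not independent, and the arrays share the platform, the hairpin and the dye order. The standard deviation of the difference was 0.44 between the H929 mean and SKMM1 and 0.43 between the H929 repeats. No gene was past 2-fold in opposite directions in the lines.

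**Figure D1:**
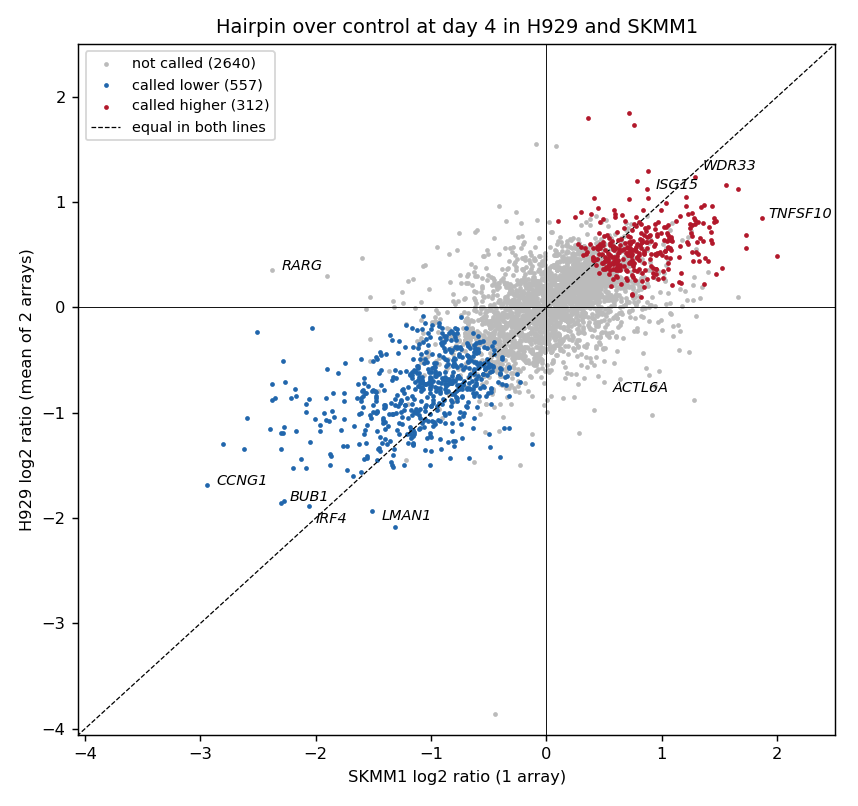
Each point is a gene, with its log2 ratio (IRF4 hairpin over luciferase hairpin) in SKMM1 on the horizontal axis and the mean of the 2 H929 arrays on the vertical axis. Blue points were called lower (557), red points higher (312) and grey points neither, and the dashed line marks equal values. The cloud runs along that line, with r = 0.73.

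Tested as the mean of the lines against 0, with limma and an adjusted p under 0.05 and the same sign on all 3 arrays, 869 of 3509 genes were called (24.8%). Lower were 557 (15.9%) and higher 312 (8.89%). With so many calls, a group of genes has to be read against these shares. The gene lists hold named genes only, and of the 2225 named genes tested 17.3% were called lower and 7.69% higher. Without H929 repeat 2 the total was 248, without SKMM1 it was 245, and without H929 repeat 1 it was 580. Set against the uninduced KMS12 mean in place of 0, 325 genes were lower (9.26%) and 150 higher (4.28%). The genes called lower had medians of -0.58 and -0.91 on the H929 arrays and -1.0 in SKMM1, and 413 of them (74.1%) were further from 0 in SKMM1 than in the H929 mean, against 62.9% of all genes tested. The rule used these values, and 1 array is set against a mean of 2, so the shares are a description. Over all genes tested, SKMM1 was further from 0 than H929 repeat 1 in 64.8% and than repeat 2 in 53.9%. H929 repeat 2 was further from 0 than repeat 1 in 62%. The genes called higher had medians of 0.54 and 0.57 in H929 and 0.76 in SKMM1, and 249 (79.8%) were further from 0 in SKMM1. Large decreases outnumbered large increases: 210 called genes were at least 2-fold lower and 34 at least 2-fold higher in the mean of the lines. Per line, 112 genes (3.19%) were past 2-fold lower in both lines and 4 (0.114%) past 2-fold higher in both, of which NCOA7 and WDR33 have names.

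The 15 named genes lowered most are given here with what each is known to do. CCNG1, cyclin G1, had -1.35 and -2.02 in H929 and -2.94 in SKMM1, and its mean of -2.31 ± 0.31 (4.96-fold lower, limma adjusted p = 0.00162) was the lowest. It is a p53 target, and the other members of the p53 list are given below. BUB1, a kinase of the spindle checkpoint, had -1.35 and -2.36 in H929 and -2.30 in SKMM1, a mean of -2.08 ± 0.32 (limma adjusted p = 0.00254). LMAN1, the receptor that carries glycoproteins from the endoplasmic reticulum to the Golgi, had -1.67 and -2.19 in H929 and -1.51 in SKMM1, with a mean of -1.72 ± 0.26 (limma adjusted p = 0.00248). LMAN1 and DYRK4 were the 2 of the 15 whose H929 mean lay below SKMM1. CCNG1, BUB1 and LMAN1 were below -1 on all 3 arrays.

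EIF4E, which binds the mRNA cap, had -1.01 and -1.76 in H929 and -1.88 in SKMM1 (3.10-fold lower). LTN1, a ubiquitin ligase that clears stalled peptides from ribosomes, had -1.15 and -1.12 in H929 and -2.28 in SKMM1, and RPS3A, a protein of the small ribosomal subunit, -1.04 and -1.30 in H929 and -2.17 in SKMM1. Both were thus lowered on every array and furthest in SKMM1, yet the difference between the lines had limma adjusted p of 0.815 and 0.955. Of the transcription factors, NFIL3 had -1.14 and -1.41 in H929 and -2.05 in SKMM1, and the E protein TCF4 had -0.49 and -1.61 in H929 and -2.60 in SKMM1. TCF4 was the least even of the transcription factors, since the H929 repeats lay 1.12 apart. The coactivator SUB1 (mean -1.64 ± 0.24), the mitochondrial folate enzyme MTHFD2 (-1.64 ± 0.30), the topoisomerase TOP2B (-1.79 ± 0.43), the bromodomain protein PHIP (-1.86 ± 0.41) and the membrane protein TMEM123 (-2.05 ± 0.41) were also among the 15, with limma adjusted p between 0.00223 and 0.014. DYRK4, a protein kinase, was called with -3.54 and -0.63 in H929 and -1.31 in SKMM1 (limma adjusted p = 0.0168). H929 repeat 1 sets much of that mean. Against the uninduced KMS12 mean, 13 of the 15 were called, all but PHIP and DYRK4 (limma adjusted p = 0.0628 and 0.114).

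The increases were smaller. TNFSF10, the death ligand TRAIL, was the highest of the named genes, with 0.90 and 0.80 in H929 and 1.87 in SKMM1, a mean of 1.36 ± 0.33 (2.56-fold higher, limma adjusted p = 0.0202). WDR33, a subunit of the polyadenylation complex, was the most even, with 1.25 and 1.23 in H929 and 1.29 in SKMM1 (mean 1.27 ± 0.17, limma adjusted p = 0.00167). MANEA, a mannosidase of the Golgi, and CENPC, a kinetochore protein, had their highest values in SKMM1, with limma adjusted p of 0.815 and 0.999 for the difference between the lines. MANEA had 0.31 and 0.66 in H929 and 2.00 in SKMM1, and CENPC 0.41 and 0.72 in H929 and 1.73 in SKMM1. The coactivator NCOA7 had 1.09 and 1.01 in H929 and 1.21 in SKMM1. Receptors made up part of this group. CD40, the receptor through which T cells stimulate B cells, had 0.81 and 0.76 in H929 and 1.26 in SKMM1 (mean 1.03 ± 0.17, limma adjusted p = 0.00305). The growth factor receptor PDGFRB averaged 1.03 ± 0.29 and the receptor NOTCH2 0.96 ± 0.25. The mitochondrial carrier UCP2 had 0.95 and 0.90 in H929 and 1.00 in SKMM1. The rest were the matrix protein fibronectin, FN1 (1.08 ± 0.19), the adaptor CD2AP (1.01 ± 0.20), TMEM168 (1.03 ± 0.19), the cytokine IL24 (0.92 ± 0.29), ISG15 and PSMB9. Their limma adjusted p, with those of PDGFRB, NOTCH2, UCP2, NCOA7, MANEA and CENPC, lay between 0.00203 and 0.0389. Against the uninduced KMS12 mean 7 of the 15 were called, and without SKMM1 4 of them.

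**Figure D2:**
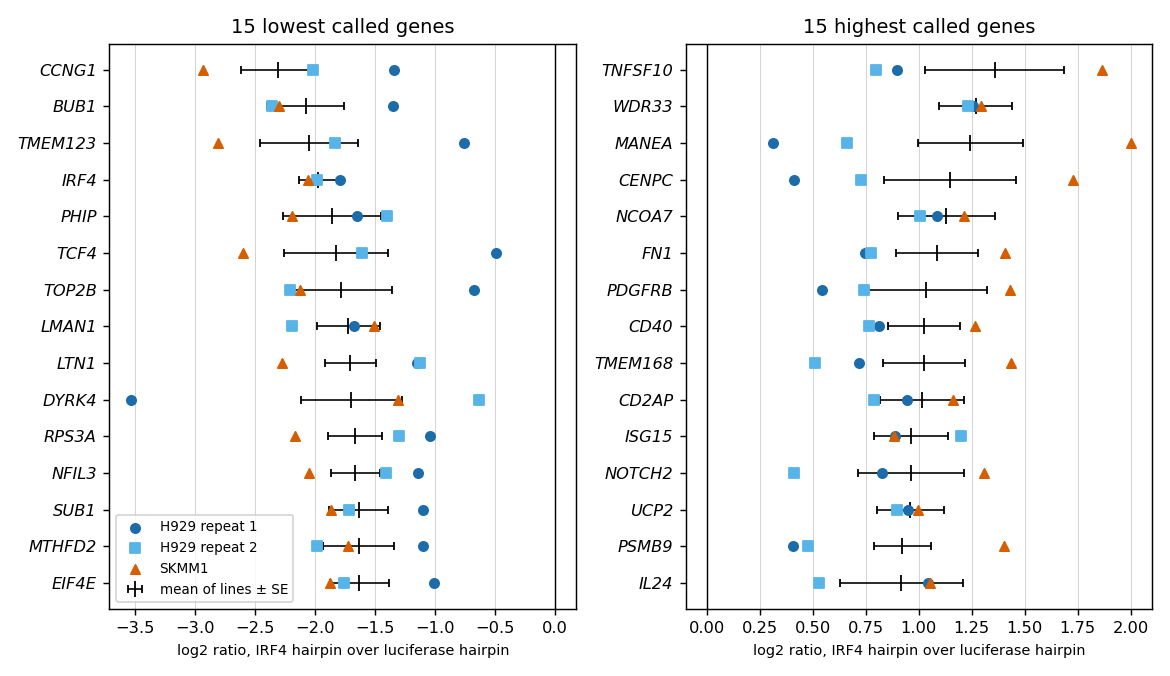
Log2 ratios (IRF4 hairpin over luciferase hairpin) of the 15 named genes with the lowest means (left) and the 15 with the highest (right) are shown for H929 repeat 1 (circles), H929 repeat 2 (squares) and SKMM1 (triangles), with the mean of the lines and its SE in black. IRF4 and WDR33 have the 3 arrays close together, while DYRK4 and TCF4 are spread wide.

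Of 23 plasma cell genes listed, 13 were measured, 5 fell (38.5%, against 15.9% of all genes tested) and 1 rose. IRF4 itself is among the 5. Their median was -0.11, against 0.019 over all genes tested. PRDM1, the repressor that fixes the plasma cell state, had -0.66 and -0.35 in H929 and -1.50 in SKMM1, and was 2.01-fold lower in the mean (log2 SE 0.18, limma adjusted p = 0.00433). XBP1, the factor of the secretory apparatus, was even, at -0.78 and -0.91 in H929 and -0.73 in SKMM1 (limma adjusted p = 0.00793). TNFRSF17 (BCMA), a survival receptor of plasma cells, had -0.64 and -0.60 in H929 and -0.96 in SKMM1 (limma adjusted p = 0.0083). JCHAIN, which joins antibodies into polymers, had -0.68 and -1.50 in H929 and -1.42 in SKMM1 (limma adjusted p = 0.0244). ELL2, an elongation factor that favours secreted antibody mRNA, rose, with 0.46 and 0.55 in H929 and 1.32 in SKMM1 (limma adjusted p = 0.0192). Of 4 immunoglobulin genes measured, JCHAIN alone was called (25%, against 15.9% of all genes tested called lower). The mu heavy chain IGHM had -1.19 and 0.06 in H929 and 0.35 in SKMM1, and its 2 features differed in sign. Without SKMM1, 2 of the 5 lowered genes were called.

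MYC, the growth regulator, was below 0 on every array and was called lower in the mean of the lines. The MYC and growth list, of which it is a member, had a median near 0. MYC had -0.41 and -1.11 in H929 and -0.97 in SKMM1, with a mean of -0.86 ± 0.22 over 4 features (limma adjusted p = 0.0175). In H929 alone it was not called (limma adjusted p = 0.0817). Of 16 measured genes on the MYC and growth list, 4 fell (25%, against 15.9% of all genes tested) and 2 rose (12.5%, against 8.89%). The median was -0.03, and MYC itself is among the 4. LDHA, lactate dehydrogenase, had -0.92 and -1.49 in H929 and -1.28 in SKMM1 (limma adjusted p = 0.00316), and EIF4E is described above. CAD, which starts pyrimidine synthesis, rose, with 0.91 and 0.68 in H929 and 0.94 in SKMM1 (limma adjusted p = 0.00773).

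Mitotic genes had the largest share of lowered members among the lists of 10 or more measured genes. Of 28 measured G2/M genes, 15 fell (53.6%, against 15.9% of all genes) and none rose, and their median was -0.65. The medians on the arrays were -0.40 and -0.77 in H929 and -0.56 in SKMM1, against 0.09 on the uninduced KMS12 arrays. CDK1, the kinase that drives mitosis, had -0.86 and -1.17 in H929 and -1.63 in SKMM1 (limma adjusted p = 0.00363). Its partner CCNA2, cyclin A, had -0.80 and -0.78 in H929 and -1.51 in SKMM1 (limma adjusted p = 0.0042). TOP2A, which untangles chromosomes, had -1.05 and -1.19 in H929 and -1.96 in SKMM1 (limma adjusted p = 0.00454). The kinase subunits CKS1B (-0.85 and -0.85 in H929, -0.78 in SKMM1) and CKS2 (-0.63 and -0.82 in H929, -0.73 in SKMM1) and the survivin gene BIRC5 (-0.67 and -0.82 in H929, -0.55 in SKMM1) were more even. The others called lower were BUB1, KIF23, MAD2L1, CDKN3, TPX2, AURKA, CENPF, CCNB1 and BUB1B, with means between -2.08 and -0.50. Not every mitotic gene followed: 8 of the 28 had a mean above 0, among them the kinase AURKB (-0.01 and 0.06 in H929, 0.68 in SKMM1, features of opposite sign) and the ubiquitin enzyme UBE2C (0.08 and 0.12 in H929, 0.58 in SKMM1). Without H929 repeat 2, 7 G2/M genes were called lower, and without SKMM1, 8. With the features centred by the number of arrays that measured them, 14 were called lower and 2 higher.

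Genes of DNA synthesis moved less as a group. Of 14 measured G1/S genes, 3 fell (21.4%, against 15.9% of all genes tested) and 1 rose (7.14%, against 8.89%), with a median of -0.11. PCNA, the sliding clamp of DNA polymerase, had -1.02 and -1.70 in H929 and -1.0 in SKMM1 (limma adjusted p = 0.00484). RRM1, of ribonucleotide reductase, had -0.86 and -1.08 in H929 and -1.18 in SKMM1, and RPA2, which coats single-stranded DNA, -0.53 and -0.64 in H929 and -0.54 in SKMM1. CDT1, which licenses origins, rose, at 0.60 and 0.62 in H929 and 0.55 in SKMM1 (limma adjusted p = 0.0205). Genes of quiescence did not rise in step. Of 10 measured, 3 fell (30%, against 15.9% of all genes tested) and 1 rose (10%, against 8.89%). Among those that fell were the cell cycle inhibitor CDKN1B (-0.36 and -0.97 in H929, -0.88 in SKMM1, limma adjusted p = 0.0438) and the pocket protein RBL2 (-0.61 and -1.14 in H929, -1.31 in SKMM1, limma adjusted p = 0.00794). The arrestin-like TXNIP also fell, evenly, with -0.63 and -0.96 in H929 and -0.85 in SKMM1. The factor KLF4 rose, with 0.64 and 0.86 in H929 and 0.85 in SKMM1 (limma adjusted p = 0.0193).

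In the secretory apparatus, 7 of 15 measured genes of the endoplasmic reticulum and unfolded protein response fell (46.7%, against 15.9% of all genes) and none rose. Their median was -0.37, with array medians of -0.22 and -0.29 in H929 and -0.49 in SKMM1, against 0.18 on the uninduced KMS12 arrays. HSPA5 (BiP), the main chaperone of the compartment, had -0.94 and -1.62 in H929 and -1.20 in SKMM1 (limma adjusted p = 0.00802). HSP90B1 (GRP94), another chaperone, had -1.28 and -1.58 in H929 and -1.55 in SKMM1, so that all 3 arrays were below 2-fold (limma adjusted p = 0.00612). SSR1, a subunit beside the translocation channel, had -0.84 and -1.02 in H929 and -1.50 in SKMM1 (limma adjusted p = 0.00471). The disulfide isomerase PDIA4 had -0.57 and -1.18 in H929 and -0.89 in SKMM1 (limma adjusted p = 0.00589), and the co-chaperone DNAJB9 and the stress sensor ATF6 were the remaining calls besides XBP1. Of the 15, 5 have the ER stress response element in the promoter window (33.3%), against 0.27% of the 1854 tested genes with a promoter. The list was chosen as genes of this response, so the contrast partly follows from that choice. These 5 are also the only tested genes with the motif. The 3 whose promoters are printed above fell, while the other two, the chaperone CALR (-0.01 and -0.11 in H929, 0.01 in SKMM1) and CRELD2 (0.29 and 0.16 in H929, 0.48 in SKMM1), were not called. Without H929 repeat 2, or without SKMM1, 4 of the list were called lower.

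Genes that ATF4 induces when amino acids are short fell in part. Of 17 measured, 6 fell (35.3%, against 15.9% of all genes) and none rose (median -0.14). ATF4 itself, at -0.27 and -0.45 in H929 and -0.68 in SKMM1, was close to the threshold (limma adjusted p = 0.0487). MTHFD2 had -1.10 and -1.99 in H929 and -1.73 in SKMM1 (limma adjusted p = 0.00433). The stress protein NUPR1 had -1.41 and -0.92 in H929 and -1.58 in SKMM1 (limma adjusted p = 0.00917). The tRNA synthetases were lower on H929 repeat 2 than on repeat 1: EPRS1 had -0.78 and -1.90 in H929 and -1.46 in SKMM1, NARS1 -0.47 and -1.54 in H929 and -1.37 in SKMM1, and GARS1 -0.52 and -1.46 in H929 and -0.75 in SKMM1 (limma adjusted p between 0.0103 and 0.0165). Without H929 repeat 2, or without SKMM1, 2 of the list were called.

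**Figure D3:**
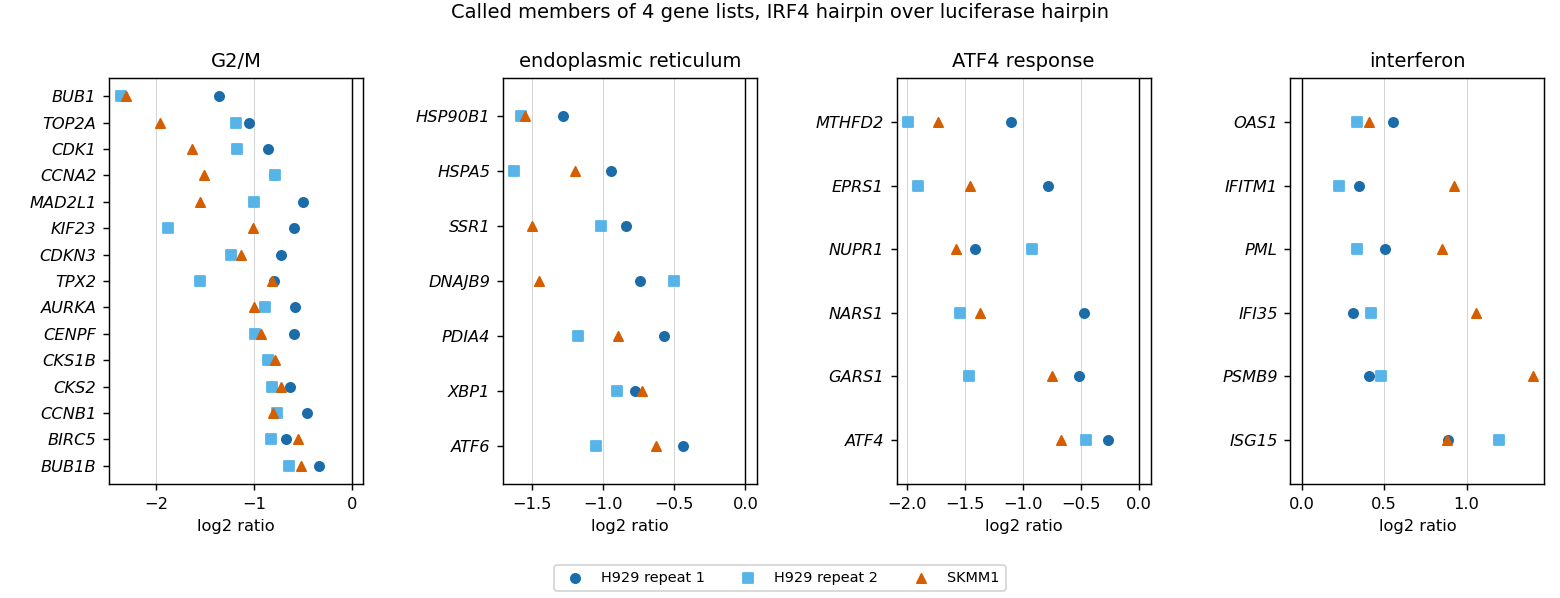
Log2 ratios (IRF4 hairpin over luciferase hairpin) of the called members of the G2/M (15), endoplasmic reticulum (7), ATF4 (6) and interferon (6) lists on H929 repeat 1 (circles), H929 repeat 2 (squares) and SKMM1 (triangles). By the rule for a call every value is on the same side of 0, and the interferon genes other than ISG15 and OAS1 are furthest from 0 in SKMM1.

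Of 16 measured glycolysis genes 2 fell (12.5%, against 15.9% of all genes tested) and none rose, and the median was 0.09. Those that fell were LDHA and the hexokinase HK2 (-0.58 and -1.44 in H929, -1.34 in SKMM1, limma adjusted p = 0.00773). The other hexokinase measured, HK1, had 0.32 and 0.32 in H929 and 0.52 in SKMM1 and was not called. Of 11 genes of the citric acid cycle 3 fell (27.3%) and 1 rose (9.09%, against 8.89% of all genes tested), with a median of -0.06. DLD and PDHB, subunits of pyruvate dehydrogenase, had -1.15 and -1.44 in H929 and -1.16 in SKMM1, and -0.42 and -0.70 in H929 and -1.12 in SKMM1 (limma adjusted p = 0.00433 and 0.00305). IDH1, which makes NADPH in the cytosol, had -0.52 and -1.49 in H929 and -0.89 in SKMM1, and IDH3G of the mitochondrial enzyme rose (0.31 and 0.48 in H929, 0.67 in SKMM1). Of 7 genes of oxidative phosphorylation 2 fell (28.6%), UQCRC2 and cytochrome c (CYCS, -0.65 and -0.74 in H929, -0.99 in SKMM1, limma adjusted p = 0.0163). Of 5 genes of sterol and fatty acid synthesis 3 fell (60%). SQLE, which makes squalene epoxide, had -0.93 and -1.69 in H929 and -1.73 in SKMM1 (limma adjusted p = 0.00306), and the desaturases SCD and FADS1 had means of -0.71 ± 0.15 and -1.05 ± 0.27. FADS1 was uneven, with -0.73 and -2.13 in H929 and -0.67 in SKMM1. It was not called against the uninduced KMS12 mean (limma adjusted p = 0.0529).

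Among protein folding and turnover genes outside the endoplasmic reticulum, the mitochondrial chaperone HSPA9 had -0.91 and -1.49 in H929 and -1.15 in SKMM1 (limma adjusted p = 0.00454), and the cytosolic HSP90AA1 had -0.52 and -1.46 in H929 and -2.08 in SKMM1 (limma adjusted p = 0.0217). They were 2 of 5 heat shock genes measured (40%, against 15.9% of all genes tested). Of 4 proteasome genes, PSMD14 alone was called (25%, mean -1.08 ± 0.30, limma adjusted p = 0.0232). Of 24 ribosomal protein genes 4 fell (16.7%, against 15.9% of all genes tested) and 3 rose (12.5%, against 8.89%), with a median of 0.16. RPS3A fell 3.18-fold, and RPS6 had -0.25 and -0.29 in H929 and -0.87 in SKMM1, whereas RPS16 (0.47 and 0.67 in H929, 0.71 in SKMM1) and RPL37A (0.56 and 0.63 in H929, 0.48 in SKMM1) were called higher. These families have many processed copies in the genome, and a cDNA spot may bind several members. RPS18 was called lower but its 2 features differed in sign, and set against the uninduced KMS12 mean the list's median was -0.12 and none was called higher.

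Part of the interferon list rose. Of 20 measured genes, 6 rose (30%, against 8.89% of all genes) and none fell, 15 had a mean above 0, and the median was 0.20. The array medians were 0.10 and 0.18 in H929 and 0.43 in SKMM1, against 0.00 on the uninduced KMS12 arrays. ISG15, the ubiquitin-like modifier, had 0.89 and 1.20 in H929 and 0.88 in SKMM1 (limma adjusted p = 0.00433). It is the only named gene past 2-fold higher in the H929 mean but not in SKMM1. PSMB9, a subunit of the immunoproteasome, had 0.41 and 0.48 in H929 and 1.40 in SKMM1 (limma adjusted p = 0.00203). The nuclear body protein PML (0.51 and 0.34 in H929, 0.85 in SKMM1), IFITM1 (0.35 and 0.23 in H929, 0.93 in SKMM1), IFI35 (0.31 and 0.42 in H929, 1.06 in SKMM1) and the RNA sensor OAS1 (0.56 and 0.34 in H929, 0.41 in SKMM1) followed, with limma adjusted p between 0.0121 and 0.0365. Several classical members were near 0. The antiviral GTPase MX1 had 0.07 and -0.06 in H929 and -0.06 in SKMM1, and IFIT3 had 0.08 and 0.18 in H929 and 0.11 in SKMM1. Of 17 members with a promoter window, 9 hold the interferon-stimulated response element (52.9%), and 2 of the 5 raised ones with a window do, ISG15 and IFITM1. The list was chosen as interferon genes, so a high share partly follows from that choice. Over all named genes, 12 of 147 raised genes with a window hold it (8.16%), 10 of 318 lowered genes (3.14%) and 96 of 1854 tested genes (5.18%). Without SKMM1 1 interferon gene was called, and with no centring 3.

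Of the listed IRF genes 4 were measured, and besides IRF4 1 was called. IRF3, a transcription factor of the response to viral infection, rose by 0.30 and 0.30 in H929 and 0.61 in SKMM1 (limma adjusted p = 0.0356). That call was lost with no centring, with 1 value per line, with the 3 arrays alone or the induced arrays alone in the fit, with no minimum of KMS12 arrays, against the uninduced mean, and without any 1 of the 3 arrays. IRF2 had -0.17 and -0.15 in H929 and -0.48 in SKMM1, and IRF9, which joins the STAT proteins at interferon elements, -0.03 and -0.17 in H929 and 0.61 in SKMM1, and neither was called. Of 16 measured NF-kB genes, 3 rose (18.8%, against 8.89% of all genes tested) and 1 fell (6.25%, against 15.9%), with a median of 0.18. CD40, the subunit RELA (0.56 and 0.33 in H929, 0.54 in SKMM1) and the regulator BCL3 (0.45 and 0.48 in H929, 0.90 in SKMM1) rose, and the chemokine CCL3 fell (-0.59 and -0.85 in H929, -1.09 in SKMM1, limma adjusted p = 0.012).

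Of 18 apoptosis genes measured, 3 fell (16.7%, against 15.9% of all genes tested) and 2 rose (11.1%, against 8.89%), with a median of 0.10. MCL1, the BCL2 relative on which myeloma cells rely, had -0.90 and -1.58 in H929 and -0.74 in SKMM1 (mean -0.99 ± 0.22, limma adjusted p = 0.00946). CASP10, an initiator caspase, had -0.65 and -0.52 in H929 and -1.03 in SKMM1 (limma adjusted p = 0.00723). TNFSF10 rose as described, and the death promoter BAD rose by 0.42 and 0.68 in H929 and 0.45 in SKMM1 (limma adjusted p = 0.0477). Of 11 measured p53 targets, 3 fell (27.3%, against 15.9% of all genes tested) and none rose. The 3 were CCNG1, the phosphatase PPM1D (-0.16 and -0.26 in H929, -1.13 in SKMM1) and the repair protein XPC (-0.08 and -0.43 in H929, -0.80 in SKMM1). MDM2, the ligase that degrades p53, had 0.21 and 0.31 in H929 and 1.03 in SKMM1 and was not called. Of 10 immediate early genes 2 fell (20%, against 15.9% of all genes tested), MYC and the nuclear receptor NR4A1 (-0.68 and -1.16 in H929, -1.17 in SKMM1, limma adjusted p = 0.0239).

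Of the 7 class I genes measured, 1 fell (14.3%, against 15.9% of all genes tested). B2M, the light chain of class I molecules, had -0.75 and -1.50 in H929 and -1.37 in SKMM1 (mean -1.25 ± 0.29, limma adjusted p = 0.012), and was not called without H929 repeat 2 or without SKMM1. HLA-B and HLA-E had means of -0.21 ± 0.15 and -0.17 ± 0.13, with features of opposite sign. Of 8 class II genes 2 rose (25%, against 8.89% of all genes tested) and none fell. Their median was 0.23, against 0.17 on the uninduced KMS12 arrays, and the median of the differences from the uninduced mean was 0.03. None of the 8 was called with no centring, with 1 value per line, against the uninduced mean or without H929 repeat 1. The class II transactivator CIITA had 0.80 and 1.01 in H929 and 0.30 in SKMM1 (limma adjusted p = 0.0464), and HLA-DPA1 had 0.38 and 0.39 in H929 and 0.63 in SKMM1 (limma adjusted p = 0.0192). HLA-DRA had 0.70 and -0.28 in H929 and 1.27 in SKMM1, and the repeats of opposite sign kept it from being called.

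Part of the earlier B cell list rose. Of 20 measured genes, 6 rose (30%, against 8.89% of all genes) and 1 fell, and the median was 0.32. CD40 and CIITA are described above. CD79B, a signalling chain of the B cell receptor, had 0.57 and 0.65 in H929 and 0.68 in SKMM1 (limma adjusted p = 0.0249), and the chemokine receptor CXCR5 had 0.68 and 0.44 in H929 and 0.59 in SKMM1 (limma adjusted p = 0.0357). The transcription factors BCL11A (0.31 and 0.17 in H929, 1.15 in SKMM1) and SPIB (0.36 and 0.28 in H929, 0.95 in SKMM1) rose as well, with limma adjusted p of 0.0157 and 0.0348. BACH2, the repressor of the plasma cell programme, was called lower, with -0.30 and -0.54 in H929 and -0.82 in SKMM1 (limma adjusted p = 0.0124), although with further features of the gene admitted its mean was 0.02. Markers of cell types that these cultures should lack also lay above 0. All 8 measured T cell genes had a mean above 0, 3 were called higher (37.5%, against 8.89% of all genes), and the median was 0.40. CD3D had 0.36 and 0.49 in H929 and 0.72 in SKMM1, and CD3E had 0.75 and 0.57 in H929 and 0.65 in SKMM1. Of 7 erythroid and stromal genes, 2 were called higher (28.6%, median 0.42), FN1 and the fetal globin HBG1 (0.41 and 0.43 in H929, 0.73 in SKMM1). Of 5 myeloid genes none was called (median 0.12). The uninduced KMS12 arrays had medians of -0.23 for earlier B cells, -0.19 for T cells and -0.16 for erythroid and stromal genes. Features measured on only 10 of the 13 arrays, which stand in for dim spots, had medians of 0.09 and 0.17 in H929 and 0.17 in SKMM1, against -0.03 and -0.06 in H929 and -0.05 in SKMM1 for features measured on all 13. The part of dim spots in the increases of B cell genes was not tested. With centring within these classes, 6 B cell genes were again called higher, against 2 with no centring, 1 without either H929 repeat and 2 without SKMM1.

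**Figure D4:**
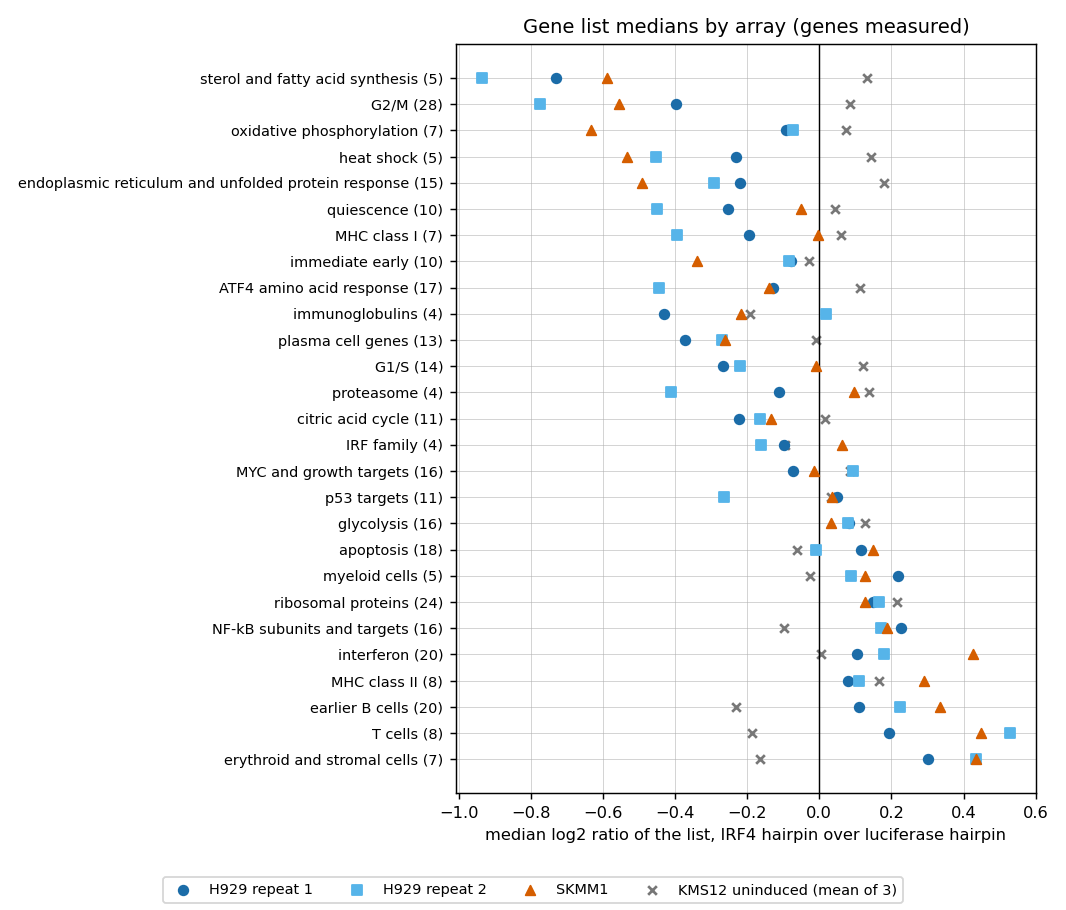
Each row is a gene list with its number of measured genes, and the horizontal axis is the median log2 ratio of its genes on H929 repeat 1 (circles), H929 repeat 2 (squares) and SKMM1 (triangles), with the mean of the 3 uninduced KMS12 arrays as crosses. The G2/M and sterol lists lie well below 0 on all 3 arrays, and the lists of interferon, earlier B cell, T cell, and erythroid and stromal genes lie above 0.

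Changes of 1 line need the test of the difference between the lines. No gene passed it: H929 minus SKMM1 had 0 of 3509 genes with a limma adjusted p under 0.05 and 179 with an unadjusted p under 0.05 (5.1%), of which 101 were higher and 78 lower in H929. SKMM1 has 1 array. On simulated data, an adjusted p under 0.05 recovered 71% of differences of 2 on the log2 scale and 23% of differences of 1. The simulation used independent noise with the same spread of a gene on every array, so the spread of SKMM1 was assumed there. By size alone, 205 genes were past 2-fold lower in SKMM1 and not in the H929 mean, of which 191 had the same sign in H929, and 45 were past 2-fold lower in the H929 mean and not in SKMM1, of which 43 had the same sign. Past 2-fold higher were 115 genes in SKMM1 and not in H929, and 11 in H929 and not in SKMM1. These counts set a single array against a mean of 2 arrays, so they are not on equal terms. As a single array, H929 repeat 2 had 299 genes past 2-fold lower and 26 higher, against 317 and 119 in SKMM1. H929 repeat 1 had 83 and 19.

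The genes with the smallest p for the difference included RARG, a retinoic acid receptor, with 0.52 and 0.18 in H929 and -2.38 in SKMM1 (difference 2.73 ± 0.48, limma adjusted p = 0.406). RARG averaged -0.74 on the 2 uninduced KMS12 arrays that measured it, so its ratio lay away from 0 without induction too. What this means for the difference between the lines was not tested. BMP6, a growth factor of the TGF-beta family, fell in both lines, with -0.63 and -1.09 in H929 and -2.21 in SKMM1 (mean -1.54 ± 0.14, limma adjusted p = 0.000334). P4HA1, which hydroxylates collagen, had -0.78 and -0.98 in H929 and -2.38 in SKMM1, and ASB3, a ubiquitin ligase adaptor, had -0.51 and -0.91 in H929 and -2.27 in SKMM1. These 3 genes were lower on every array and furthest from 0 in SKMM1. DCAF1, another ligase adaptor, had 0.32 and -0.03 in H929 and -1.25 in SKMM1. In the other direction, ACTL6A, an actin-like subunit of chromatin remodellers, had -0.50 and -0.91 in H929 and 0.50 in SKMM1 (difference -1.20 ± 0.31, limma adjusted p = 0.572). The phosphatase PTPRK had -0.06 and -0.05 in H929 and 1.08 in SKMM1, and THAP1, a zinc finger factor, -0.06 and -0.38 in H929 and 1.16 in SKMM1. PSMB9 and the dehydrogenase ADH5 (0.21 and 0.24 in H929, 1.36 in SKMM1) were higher on every array and highest in SKMM1. Among apoptosis genes, BNIP3 had -0.36 and -0.85 in H929 and 0.98 in SKMM1, and BCL2, the survival protein, 0.14 and -0.38 in H929 and 0.99 in SKMM1, with limma adjusted p of 0.741 and 0.815 for the difference.

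**Figure D5:**
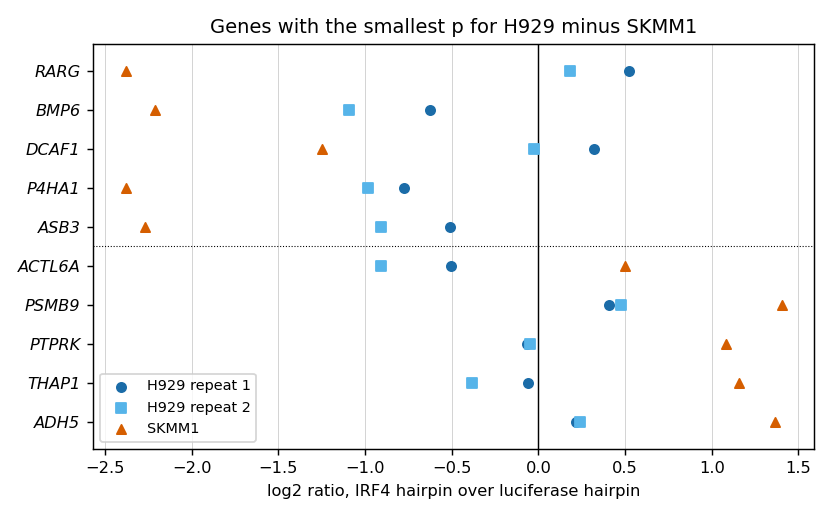
Log2 ratios (IRF4 hairpin over luciferase hairpin) on H929 repeat 1 (circles), H929 repeat 2 (squares) and SKMM1 (triangle) are shown for the 5 genes with the smallest p that were higher in H929 (above the dotted line) and the 5 that were lower in H929. None passed an adjusted p of 0.05. RARG, ACTL6A, PTPRK and THAP1 have both H929 arrays on the other side of 0 from SKMM1, and DCAF1 has the H929 arrays on both sides.

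H929 was also taken by itself, with its 2 arrays against 0. Of the genes called there, 232 were also called in the mean of the lines, where 24.8% of all genes tested were called. That mean holds the same H929 values, so the overlap partly follows from the design and says nothing of SKMM1. In H929 alone, 181 genes were lower (5.16%) and 64 higher (1.82%), 245 together. That count ranged from 2 without H929 repeat 2 to 405 without replicate 2 of the KMS12 arrays at days 2-3, so it rests on few arrays.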

How the data were processed

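RNA of the IRF4 hairpin culture (Cy5) and the luciferase hairpin culture (Cy3) was hybridised together to Lymphochip spotted cDNA arrays, per the labels. The authors deposited 1 table of log ratios for 15246 features by 13 arrays. The log base, normalization and background correction used by the authors were not given in the sources used here, so the deposited ratios were taken as log2. Features of 1 gene symbol numbered 10169, of several 4 and of none 5073, and 41 kept an older symbol.

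A feature was tested if measured on the 3 arrays of H929 and SKMM1 and on at least 7 of the 10 KMS12 arrays, 4799 features in all. The median of each array over these (-0.10, -0.10 and -0.12) was subtracted, and features of a gene were averaged. Two-sided tests came from limma 3.58.1 (lmFit, then eBayes; R 4.3.3) on all 13 arrays as 6 group means, with Benjamini-Hochberg adjustment over 3509 genes. The single SKMM1 array is assumed to vary like the other groups. On simulated data made with the same assumption, the mean of the lines recovered 78% of changes of 1 and 97% of changes of 2 on the log2 scale. The number of arrays limits the precision.

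The arrays, the 27 gene lists and the rules were chosen with earlier results of these data known. The genes named were IRF4, the 15 lowest and 15 highest called means, the 5 genes with the smallest p per direction for the difference, and, in each list, the 4 genes of smallest p for the mean and the 2 for the difference. Other genes were chosen after their values were seen. Of 152 genes named by rule, 69 had 2 or more features, and 9 had features of opposite sign. Of 304 listed genes measured, 19 sat in more than 1 list.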

Additional observations from a re-analysis of the deposited data

How the results depend on the processing

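The 869 calls for the mean of the lines stayed between 737 and 882 with no centring, centring by class, other filters on features, 1 feature per gene, other arrays in the fit, robust variances, equal weights or 1 value per line, but the split moved: 557 lower and 312 higher became 657 and 151 with no centring. Against the uninduced KMS12 mean 475 were called, and with a 2-fold minimum, added after seeing the data, 244. Leaving out 1 array at a time gave 245 to 913. The 245 calls of H929 alone became 153 without a KMS12 minimum, 383 on features of all 13 arrays, 0 in a fit of the 3 arrays (limma, with 1245 at an unadjusted p under 0.05), 58 with induced arrays only and 27 against uninduced, and 2 to 405 with 1 array left out; 390 were called without replicate 3 of the KMS12 arrays at days 2-3 and 47 without H929 repeat 1. The difference between the lines had 0 calls, or 2 without replicate 3 of days 2-3. Genes 2-fold higher in SKMM1 numbered 74 with no centring, against 119. Of the named genes, BACH2 reversed, to 0.0189, without a KMS12 minimum, where more of its features entered. List medians changed sign for glycolysis, apoptosis and p53 with no centring, for p53 and the IRF family with centring by class, and for ribosomal proteins, the IRF family and immunoglobulins against uninduced. Except where stated, the cause was not tested. No paired analysis was possible because H929 and SKMM1 share only 1 replicate number, that of SKMM1 was given by order, and no label ties a number to a batch or day. Of the features measured on the 3 arrays, 904 were not tested.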
